A study of Mus musculus with 4 samples.

Results

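Of the 37411 genes in the count table, 10 that belong to the cellular response to low oxygen were followed in cultured bone cells of mice without and with PPARα: Mgarp, Ankrd37, Car9, Egln1, Egln3, Adm, Hif1a, Ndrg1, P4ha1 and Higd1a. Of these, 2, Mgarp and Ankrd37, were chosen because their levels differed between the genotypes, so their values are a description without a test. The other 8 were chosen as known hypoxia genes, though with earlier results of these data known. RNA came from 2 cultures of αKO mice and 2 of WT mice (labels: PPARa KO and PPARa WT). The αKO mice lacked PPARα in all tissues (line 129S4/SvJae-PPARα tm1Gonz/J in the methods, with a neomycin cassette in place of part of a coding exon), and the labels name the strain C57BL/6 for all 4 libraries. All mice were 5 months old and all cells had 6 days of growth ex vivo by the labels, whereas the methods give an older age and a longer culture. The cells were the osteocyte-enriched fraction freed from femora by serial collagenase digestion. The labels state that nothing was added as treatment, whereas the name of the authors' own comparison has DMSO for both genotypes. The oxygen level of the cultures is not given in the sources used here.

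Cells sense oxygen through hypoxia-inducible factors (HIFs), pairs of an oxygen-sensitive α subunit such as HIF1α (Hif1a) and the stable partner ARNT. In air, the prolyl hydroxylases encoded by Egln1, Egln2 and Egln3 mark the α subunit for destruction through the VHL ubiquitin ligase. In low oxygen the mark is missing, the α subunit lasts, and the pair binds a short DNA core before target genes for glycolysis, lactate export, pH control and vessel growth. Control of HIF1α is thus mainly at the protein, which RNA counts do not measure, and several targets, among them Egln1 and Egln3, feed back on the sensor. In bone, osteocytes sit in mineralized matrix far from vessels, and HIF activity in bone-forming cells is known to couple bone and vessel growth.

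The HIF core reads ACGTG or GCGTG on either strand, and 9 of the 10 genes had a RefSeq start site in GRCm38.p6 whose preceding 250 bases could be searched. All 9 held at least 1 core, as did 38.6% of 32851 mouse promoter windows of the same length, and 7 of the 9 held an ACGTG, as did 16.6% of the windows. Ankrd37 held 4 cores, a number reached by 2.58% of windows. A match is a description of the letters and does not show binding. The windows of the 4 genes with the largest fold differences are printed 5′ to 3′ on the gene's strand, ending at the base before the start, with each core in capitals (CACGT and CACGC are the cores on the opposite strand). They lie at chr3:51396548-51396797 for Mgarp, chr8:45999851-46000100 for Ankrd37 and chr12:54203875-54204124 for Egln3, all on the minus strand, and at chr4:43506776-43507025 on the plus strand for Car9. The RefSeq starts differ from the outer ends of the GENCODE gene models, whose positions are given with each gene below. The Ankrd37 window lies wholly inside its model, and those of Mgarp and Car9 lie partly inside. Distances hold for the RefSeq start alone.
Mgarp: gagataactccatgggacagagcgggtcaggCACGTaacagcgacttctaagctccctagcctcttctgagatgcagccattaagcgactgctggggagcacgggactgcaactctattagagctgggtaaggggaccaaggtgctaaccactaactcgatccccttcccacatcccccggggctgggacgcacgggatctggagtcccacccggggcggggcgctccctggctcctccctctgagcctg
Ankrd37: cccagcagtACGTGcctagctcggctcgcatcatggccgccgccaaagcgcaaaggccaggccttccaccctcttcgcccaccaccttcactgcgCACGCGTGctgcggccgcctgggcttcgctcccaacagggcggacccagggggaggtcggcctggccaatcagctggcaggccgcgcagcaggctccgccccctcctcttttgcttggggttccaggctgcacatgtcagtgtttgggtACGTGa
Egln3: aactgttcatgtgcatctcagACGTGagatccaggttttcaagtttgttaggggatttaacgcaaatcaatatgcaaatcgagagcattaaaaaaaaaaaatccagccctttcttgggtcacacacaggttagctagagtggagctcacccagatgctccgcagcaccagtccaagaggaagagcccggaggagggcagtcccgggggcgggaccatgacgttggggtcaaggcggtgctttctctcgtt
Car9: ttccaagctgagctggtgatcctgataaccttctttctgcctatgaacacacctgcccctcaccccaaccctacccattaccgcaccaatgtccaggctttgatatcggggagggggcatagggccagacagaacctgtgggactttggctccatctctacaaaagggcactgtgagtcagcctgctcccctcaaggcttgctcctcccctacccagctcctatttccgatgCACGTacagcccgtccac
The single core of Mgarp lay on the opposite strand at -219 to -215 from the start, and that of Egln3 on the gene's strand at -229 to -225. In Ankrd37 the outer cores were at -241 to -237 and at -6 to -2, and the middle pair, at -155 to -151 and -152 to -148 on opposite strands, shared bases. The core of Car9 was at -18 to -14. Of the other genes, Hif1a and P4ha1 held 3 cores each and Egln1, Adm and Higd1a 2 each, and both cores of Adm and of Higd1a were GCGTG. A pair of cores shared bases in Hif1a and in Higd1a too.

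**Figure D1:**
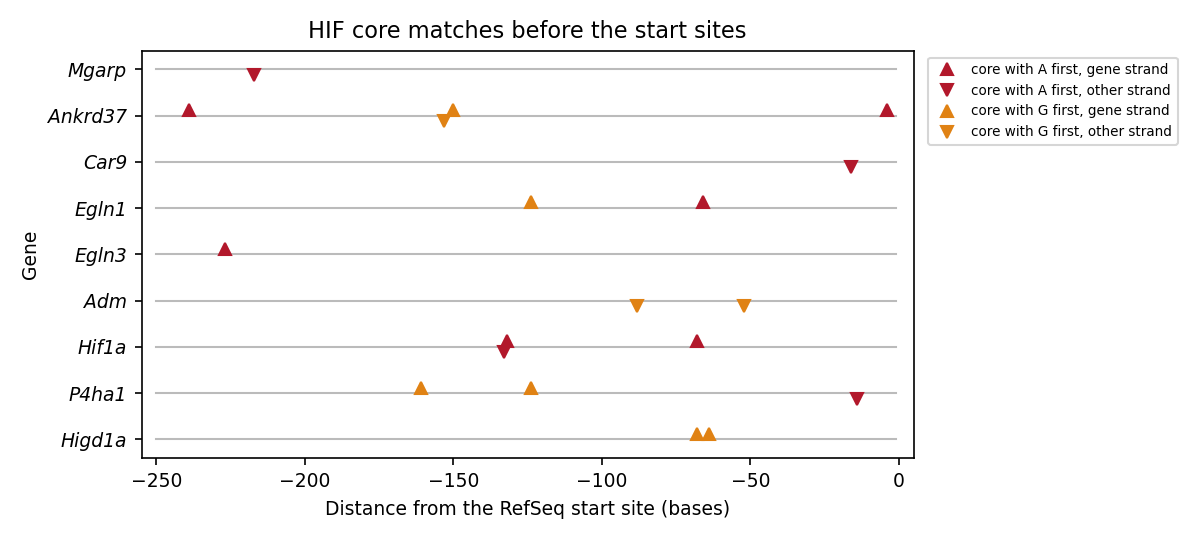
Positions of the HIF cores ACGTG (red) and GCGTG (orange) in the 250 bases before the RefSeq start of 9 genes, by distance from the start in bases, with matches on the gene's strand pointing up and those on the other strand pointing down. Ankrd37 held 4 cores, Hif1a and P4ha1 3, and Mgarp, Egln3 and Car9 1 each.

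The libraries held 27496137 and 25136628 counts in αKO and 25462028 and 25687940 counts in WT cultures. Ppara itself had 15 and 9 counts in αKO and 16 and 13 counts in WT cultures, too few to check the genotype, and a disrupted exon can leave reads on the others. Over all 13571 genes with enough counts to test, edgeR's quasi-likelihood test called 0% at an adjusted p of 0.05, while 5.39% (732) had an unadjusted p under 0.05. DESeq2 passed 52 of 14218 (0.366%), edgeR's likelihood ratio test 28 (0.206%) and limma voom 0. With 2 libraries against 2, no exact permutation test can give a p below 0.3333, and the labels call the replicates biological without saying whether each was a separate animal, so p-values measure the spread between these libraries.

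Marker genes of macrophages leaned to the higher side in αKO, and most of those of osteoblasts to the lower side. All 20 macrophage markers were higher in αKO, with summed levels of 35495 and 29788 CPM (counts scaled to library size with TMM factors) in αKO and 23906 and 13980 CPM in WT cultures, and 13 of 14 osteoblast markers were lower. Both αKO libraries were above both WT libraries in 17 macrophage markers (17.1% of all genes tested were) and below them in 6 osteoblast markers (16.0% were). The other 8 osteoblast markers overlapped, among them the abundant Col1a1, Col1a2 and Spp1 (log2 fold changes 0.002, -0.05 and -0.05). In edgeR 0 of either list passed. At an unadjusted p under 0.05, 7 macrophage markers were higher (2.81% of all genes were) and 5 osteoblast markers lower (2.59% were). DESeq2 passed 2 of the macrophage markers, the likelihood ratio test 1 and limma voom 0. Of 10 osteocyte markers, Sost and Fgf23 had 0 counts in all libraries and Mepe from 0 to 4, while others were present. Of the 6 with enough counts 5 were lower in αKO (median log2 fold change -1.65), 3 of them at an unadjusted p under 0.05 and 0 at an adjusted p under 0.05 in edgeR, 1 (Ptprz1) in DESeq2 and 0 in the likelihood ratio test or limma voom. Dmp1, a matrix protein gene of osteocytes, had 23 and 110 counts in αKO and 306 and 455 counts in WT libraries, and Pdpn, a gene of early osteocytes, was at 76.3 and 31.7 CPM in αKO and 196 and 201 CPM in WT cultures. These 3 were chosen after their values were seen. The 6 erythroid markers had 0 to 2 counts. Whether the difference in macrophage and bone cell markers had a part in the levels given here was not tested, and in bulk RNA a change in the share of a cell type and one in RNA per cell cannot be told apart.

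Per transcript length, the 10 genes spanned a wide range of levels, here in the authors' TPM over all 4 libraries. Hif1a (mean 160 TPM, from 89.8 to 261) and P4ha1 (135 TPM, from 106 to 201) stood highest, with ranges that overlapped each other. Higd1a (51.7 TPM), Adm (49.9 TPM), Egln1 (41.9 TPM) and Ndrg1 (29.7 TPM) followed, each overlapping the next. Car9 (6.42 TPM), Ankrd37 (4.79 TPM), Egln3 (4.19 TPM) and Mgarp (3.09 TPM) formed the lowest set, overlapping among themselves but not with Ndrg1.

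**Figure D2:**
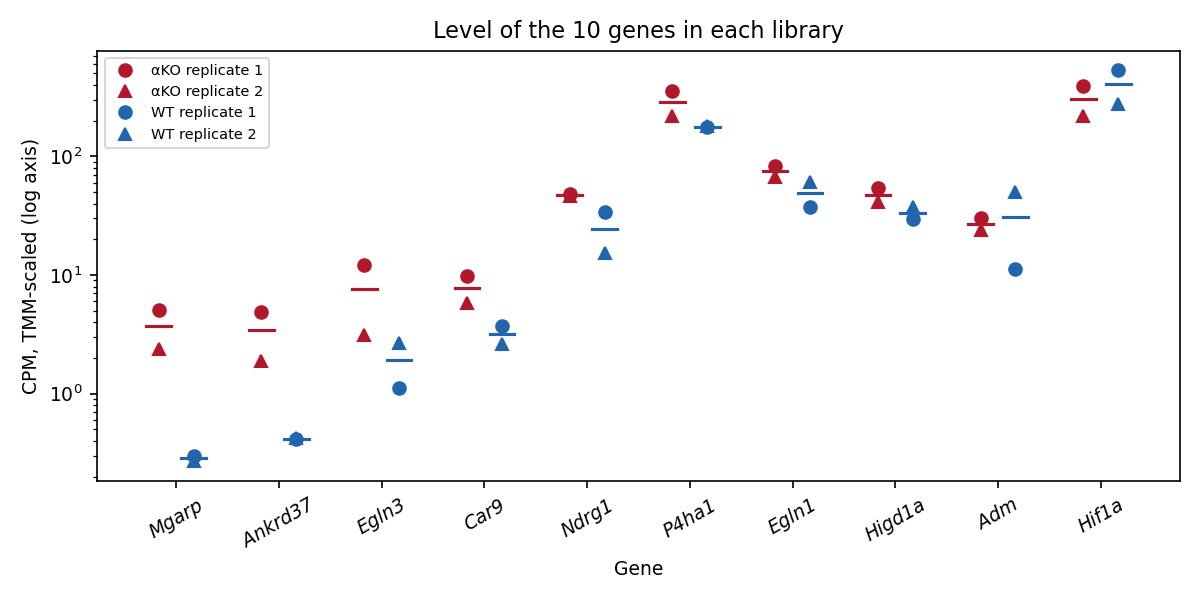
Level of each gene in CPM on a log axis, with αKO libraries in red to the left of WT libraries in blue (circles replicate 1, triangles replicate 2) and horizontal lines for the means of the 2 libraries. Both αKO libraries stood above both WT libraries in 8 of the 10 genes, from Mgarp to Higd1a, and in 17.1% of all genes tested. Mgarp and Ankrd37 were chosen for such a difference. The genotypes overlapped for Adm and Hif1a.

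Mgarp encodes a mitochondrial protein, first described as a hypoxia-induced regulator of mitochondrial movement, that links mitochondria to their motors (chromosome 3 of GRCm38, 51388412 to 51396738, minus strand). It had 133 and 59 counts in αKO libraries and 8 and 7 counts in WT libraries, or 5.07 and 2.38 CPM in αKO and 0.3 and 0.269 CPM in WT cultures. Both αKO libraries were thus far above both WT libraries, and the αKO libraries themselves differed 2.13-fold. The means were 3.72 ± 1.90 CPM in αKO and 0.285 ± 0.0214 CPM in WT cultures (SD, n = 2 each). The fitted log2 fold change of αKO over WT was 3.69 (standard error 0.662), a 12.9-fold difference. The summed counts, 192 against 15, gave a ratio of 13.2 with a 95% exact interval of 7.81 to 24.1 that covers counting error only. Mgarp passed the filter on low counts through the αKO libraries alone, since both WT libraries were under the minimum of 0.391 CPM before TMM scaling.

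Genes of the proteins that MGARP is known to work with showed no such pattern. The mitochondrial GTPase gene Rhot1 was at 62.4 and 47.0 CPM in αKO and 78.3 and 48.8 CPM in WT cultures, and Rhot2 was at 11.9 and 12.7 CPM in αKO and 7.79 and 12.3 CPM in WT. The adaptor gene Trak2 had a log2 fold change of -0.01 and Trak1 of 0.38, with overlapping libraries. Beside Mgarp on the chromosome, Ndufc1, a subunit of respiratory complex I, was at 34.3 and 45.6 CPM in αKO and 39.6 and 35.6 CPM in WT (log2 fold change 0.09), and Elf2 on the other side had a log2 fold change of 0.05. None of these neighbours or partners had libraries that parted by genotype.

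Ankrd37, an ankyrin repeat gene known as a direct HIF1 target (chromosome 8, 45996902 to 46005707, minus strand), followed the same order. It had 129 and 47 counts in αKO and 11 and 11 counts in WT libraries, or 4.92 and 1.90 CPM in αKO and 0.412 and 0.423 CPM in WT cultures. The WT libraries nearly coincided, while the αKO libraries differed 2.59-fold. The means were 3.41 ± 2.14 CPM in αKO and 0.418 ± 0.00806 CPM in WT cultures (SD, n = 2 each). The log2 fold change was 3.01 (standard error 0.695), or 8.08-fold, and the ratio of summed counts was 8.26 (95% exact counting interval 5.29 to 13.5). Exons of Ufsp2 and Lrp2bp on the opposite strand overlap those of Ankrd37 by 57 and 349 bases, and whether reads were counted by strand is not given in the sources used here. Ufsp2 was at 74.3 and 53.6 CPM in αKO and 82.2 and 44.3 CPM in WT (log2 fold change 0.02), and Lrp2bp had 5 and 0 counts in αKO and 4 and 2 counts in WT. Neither neighbour showed the genotype difference of Ankrd37.

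Leaving out αKO replicate 1 lowered both values most, to a log2 fold change of 3.04 for Mgarp and 2.17 for Ankrd37. Without αKO replicate 2 they were 4.14 and 3.55. Leaving out either WT library moved them little (3.58 to 3.79 for Mgarp and 2.99 to 3.02 for Ankrd37).

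Of the 8 genes not chosen for their levels, 0 had an adjusted p under 0.05 with edgeR's quasi-likelihood test, DESeq2, edgeR's likelihood ratio test or limma voom, and 1, Car9, had an unadjusted p under 0.05 in edgeR on the higher side, where 2.81% of all genes did. The libraries of 6 of the 8 did not overlap, with both αKO above both WT, against 17.1% of all genes tested. The median log2 fold change of the 8 was 0.66, beside -0.01 for all genes. Since these 8 were chosen with earlier results of these data known, they are not an unselected sample. All 6 kept αKO above WT in sign when any 1 library was left out. Their lack of overlap fixes this in advance, so it is no further support. Adm and Hif1a did not keep one sign.

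Car9 encodes carbonic anhydrase IX, a cell-surface enzyme that handles acid in hypoxic cells (chromosome 4, 43506966 to 43513729, plus strand). It was at 9.72 and 5.85 CPM in αKO and 3.75 and 2.62 CPM in WT cultures, so that the lower αKO library was still above both WT libraries. The log2 fold change was 1.29 (standard error 0.487), 2.44-fold, which did not pass (edgeR, adjusted p = 0.912). The antisense gene Gm12454, which shares 214 exon bases with it, had 40 and 21 counts in αKO and 28 and 33 counts in WT libraries, against 255 and 145 counts of Car9 in αKO and 100 and 68 in WT. Of the protein-coding genes beside Car9, Arhgef39, 7271 bases away, also parted by genotype. It was at 11.6 and 11.9 CPM in αKO and 6.78 and 4.5 CPM in WT cultures. Of all genes tested, 17.1% parted on this side. The libraries of Tpm2 on the other side overlapped. Car12, another membrane-bound carbonic anhydrase that hypoxia induces in tumor cells, was at 1.75 and 2.82 CPM in αKO and 16.1 and 1.66 CPM in WT cultures, which overlapped. It stood on WT replicate 1, and without WT replicate 2 it was lower in αKO (log2 fold change -2.85, adjusted p = 0.0113) while without WT replicate 1 the value was 0.49.

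Egln3, a prolyl hydroxylase gene strongly induced by hypoxia (chromosome 12, 54178981 to 54203860, minus strand), was at 12.1 and 3.15 CPM in αKO and 1.12 and 2.69 CPM in WT cultures. The genotypes parted, but αKO replicate 2 was only slightly above WT replicate 2, and the αKO libraries differed 3.85-fold. Its log2 fold change was 2.00 (standard error 0.836), which did not pass (edgeR, adjusted p = 0.932). Leaving out αKO replicate 1 gave 0.72, and leaving out WT replicate 2 gave 2.72.

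Egln1, the main sensor of oxygen among the hydroxylases (chromosome 8, 124908587 to 124949324, minus strand), was at 82.5 and 66.7 CPM in αKO and 37.2 and 61.0 CPM in WT cultures. Here too αKO replicate 2 and WT replicate 2 lay close. Its log2 fold change was 0.60 (standard error 0.365), which did not pass (edgeR, adjusted p = 1.0). Leaving out WT replicate 1 gave 0.31 and leaving out WT replicate 2 gave 0.97. Egln2, the hydroxylase that hypoxia does not induce, was at 31.4 and 65.6 CPM in αKO and 12.1 and 59.7 CPM in WT. Its libraries parted by replicate number rather than by genotype, and it passed only without WT replicate 2 (log2 fold change 1.97, adjusted p = 0.0328).

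P4ha1 encodes the catalytic subunit of the enzyme that hydroxylates prolines of collagen, and is both a HIF target and a gene of matrix synthesis (chromosome 10, 59323296 to 59373304, plus strand). It was at 358 and 219 CPM in αKO and 175 and 179 CPM in WT cultures, with WT libraries that nearly coincided. Between genotypes the log2 fold change was 0.71 (standard error 0.346), which did not pass (edgeR, adjusted p = 0.96), and it was 0.31 without αKO replicate 1. The related subunit P4ha2, also a HIF target, was at 204 and 118 CPM in αKO and 71.2 and 115 CPM in WT cultures. P4ha3 was at 43.3 and 43.7 CPM in αKO and 52.3 and 89.8 CPM in WT, and P4hb, the shared partner of the 3 catalytic subunits, had a log2 fold change of -0.04. The libraries of P4ha3 also did not overlap, with αKO below WT.

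Ndrg1, a stress response gene (chromosome 15, 66929318 to 66969640, minus strand, on the chromosome that carries Ppara at 85734983 to 85802819), was at 48.2 and 46.2 CPM in αKO and 33.8 and 15.4 CPM in WT cultures. The αKO libraries were nearly equal and the WT libraries differed 2.20-fold. Between genotypes the log2 fold change was 0.94 (standard error 0.458), which did not pass with all libraries (edgeR, adjusted p = 0.958). Without WT replicate 1 it was 1.64 and passed (adjusted p = 0.0235), on the assumption that the lone WT library varies like the αKO pair, and without WT replicate 2 it was 0.45. In that comparison without WT replicate 1, 3.19% of all genes passed on the higher side. Of the family, Ndrg2 and Ndrg3 overlapped between genotypes, and Ndrg4 was at 35.1 and 37.2 CPM in αKO and 52.3 and 76.6 CPM in WT.

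Higd1a, whose protein sits in the inner mitochondrial membrane and acts on the respiratory chain (chromosome 9, 121848563 to 121858362, minus strand), was at 54.0 and 41.0 CPM in αKO and 29.9 and 37.3 CPM in WT cultures. The gap between the nearest αKO and WT libraries was smaller than that between the αKO libraries. The log2 fold change was 0.50 (standard error 0.329), which did not pass (edgeR, adjusted p = 1.0), and it was 0.29 without αKO replicate 1. The genes Gm14925 and Gm9790 share 5.02% of its 50-base words, so some reads could have been assigned to or lost with them, and 683 exon bases overlap the antisense gene Gm47112. The relative Higd2a had overlapping libraries, and Higd1b and Higd1c had 0 to 1 counts.

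The last pair overlapped between genotypes. Hif1a (chromosome 12, 73901375 to 73947530, plus strand) was at 391 and 219 CPM in αKO and 530 and 276 CPM in WT cultures. In each genotype replicate 1 was the higher, 1.79-fold in αKO and 1.92-fold in WT, so libraries of one genotype lay further apart than the genotype means. The log2 fold change of -0.40 (standard error 0.474) did not pass (edgeR, adjusted p = 1.0), and it was 0.16 without WT replicate 1 and -0.03 without αKO replicate 2. Of the 50-base words of Hif1a, 1.72% also occur in the Gm49321 model, which overlaps it on the same strand by 148 exon bases. The protein-coding genes on either side of Hif1a parted by genotype, Prkch higher in αKO (log2 fold change 1.21) and Snapc1 lower (-1.29). Beside other genes of the 10, the libraries of Npas3 (next to Egln3) and Wisp1 (next to Ndrg1) were lower in αKO without overlap. Those of Sowahc (next to P4ha1) were higher without overlap, but barely (log2 fold change 0.09, nearest libraries at 11.9 CPM in αKO and 11.8 CPM in WT). Of all genes tested, 17.1% had both αKO libraries above both WT libraries and 16.0% had both below. A neighbour that parted by genotype is therefore no result about the 10 genes.

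Adm encodes adrenomedullin, a peptide that widens vessels (chromosome 7, 110627661 to 110629820, plus strand). It was at 30.2 and 23.9 CPM in αKO and 11.2 and 50.2 CPM in WT cultures, so that both αKO libraries lay between the WT libraries. Its log2 fold change was -0.18 (standard error 0.719), which did not pass (edgeR, adjusted p = 1.0), and it turned with single libraries, to 1.24 without WT replicate 2 and -0.87 without WT replicate 1. Its receptor gene Calcrl was at 45.3 and 29.4 CPM in αKO and 38.4 and 9.85 CPM in WT cultures, and passed only without WT replicate 1 (log2 fold change 1.94, adjusted p = 0.0245). The accessory gene Ramp1 had overlapping libraries. Ramp2 and Ramp3, which turn that receptor into one for adrenomedullin, had from 0 to 39 counts and were not tested. Ackr3, a scavenging receptor of adrenomedullin, was at 1.52 and 0.202 CPM in αKO and 2.32 and 1.81 CPM in WT cultures. Of all 20 relatives and partners of the 10 genes, 16 had enough counts, of which 7 were higher and 9 lower in αKO (median log2 fold change -0.02). Both αKO libraries were above both WT libraries in 1 (17.1% of all genes tested were) and below them in 3 (16.0% were).

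**Figure D3:**
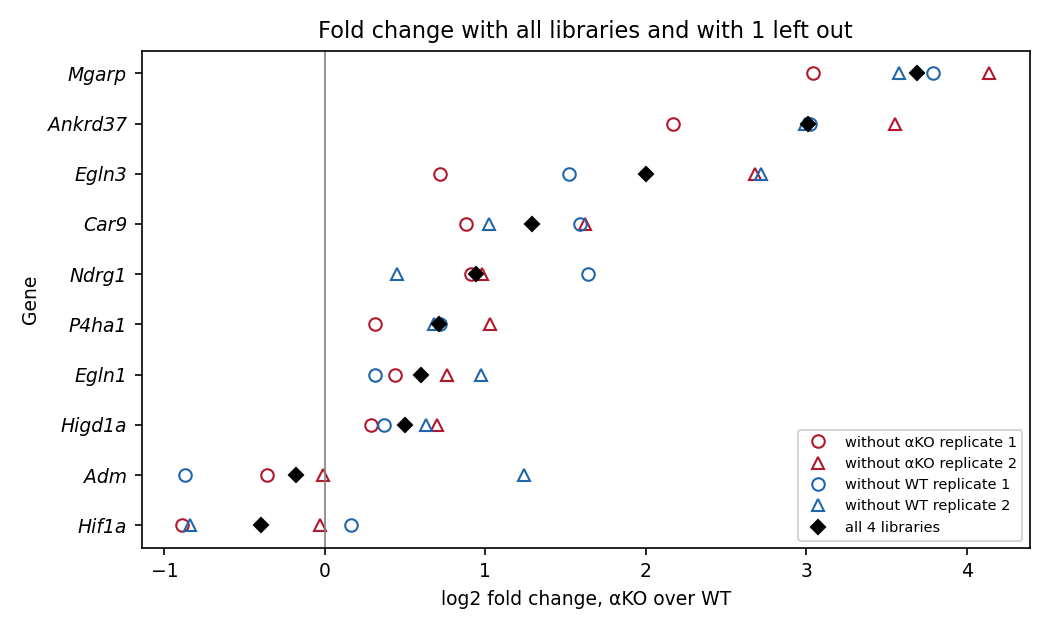
The log2 fold change of αKO over WT for the 10 genes with all 4 libraries (black diamonds) and with 1 library left out (open symbols, red for αKO, blue for WT, circles for replicate 1 and triangles for replicate 2). The 8 genes from Mgarp to Higd1a stayed above 0 in each case, which follows from their libraries not overlapping between genotypes. Egln3 ranged from 0.72 to 2.72, and Adm and Hif1a fell on both sides of 0.

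The αKO libraries differed from each other. Of the 8 genes not chosen for their levels, 8 were higher in αKO replicate 1 than in αKO replicate 2, against 51.2% of all genes tested, and 6 were highest there of all 4 libraries, against 15.7%. The excess was found in some related lists too, with αKO replicate 1 above replicate 2 in 56 of the 72 HIF targets described next. By group it was 21 of their 24 genes of glucose use but 9 of 15 of vessels, pH and secretion. Of the relatives and partners it was 8 of 16. The 6 genes with αKO above WT all ran in the order αKO replicate 1, αKO replicate 2 and then both WT libraries, as did 962 of the 2321 genes with αKO above WT (7.09% of all genes tested) and 10 of the 20 macrophage markers. Mgarp and Ankrd37 ran in this order as well. The ratio of αKO replicate 1 over replicate 2 was lowest for Ndrg1 (1.04) and Egln1 (1.24) and highest for Ankrd37 (2.59) and Egln3 (3.85). Between the WT libraries replicate 1 was the higher for 4 of the 10 genes. The median deviation of the 8 genes not chosen for their levels from their own mean was 0.51 and 0.01 in αKO replicates 1 and 2 and -0.39 and -0.28 in WT replicates 1 and 2, on the log2 CPM scale.

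The sensor and its regulators, 18 genes including Hif1a, Egln1 and Egln3, were balanced. Of the 17 with enough counts, 10 were higher and 7 lower in αKO (median log2 fold change 0.08), and 0 passed in edgeR or had an unadjusted p under 0.05. DESeq2, the likelihood ratio test and limma voom also passed 0. Beside Egln3 and Egln1, the smallest p belonged to Arnt2, a paralog of the stable HIF partner, at 7.01 and 6.54 CPM in αKO and 11.2 and 10.6 CPM in WT cultures (log2 fold change -0.69, edgeR adjusted p = 0.972). Arnt, Vhl and the asparagine hydroxylase gene Hif1an had log2 fold changes of -0.12, 0.19 and -0.05. Epas1, which encodes HIF2α, was at 42.6 and 78.7 CPM in αKO and 36.4 and 59.2 CPM in WT, overlapping. Hif3a, with 0 to 2 counts, could not be tested.

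Textbook HIF targets outside the 10 genes leaned to the higher side. Of 75, 72 had enough counts, of which 49 were higher and 23 lower in αKO (68.1% higher, against 49.2% of all genes tested), with a median log2 fold change of 0.36. In edgeR 0 passed an adjusted p of 0.05. At an unadjusted p under 0.05, 10 were higher (13.9%, against 2.81% of all genes) and 1 lower (2.59% of all genes were). Cox4i2 was among these 10, the 49 higher genes and the 27 non-overlapping genes given below. It passed the filter on low counts through the αKO libraries alone, so its place in these counts is no independent result. DESeq2 passed 3 (Slc16a3, Ndufa4l2 and Pdgfb), the likelihood ratio test Pdgfb alone and limma voom 0. Both αKO libraries stood above both WT libraries in 27 of the 72 (37.5%) and below them in 4, against 17.1% of all genes above and 16.0% below. Those 4 were Edn1, Bhlhe40, Stc2 and Hilpda, with log2 fold changes of -1.04, -0.88, -0.86 and -0.64. Bhlhe40 was also the 1 lower gene at an unadjusted p under 0.05. Without αKO replicate 1, 40 of 72 were higher (55.6%, against 47.2% of all genes tested in that setting), and the median was 0.19.

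By role, Mgarp and Higd1a stand nearest to the targets of mitochondria and stress, Car9 and Adm to those of vessels, pH and secretion, and P4ha1 to those of matrix. Of 24 glucose genes, 21 were higher (median 0.50). Slc16a3 encodes the lactate exporter MCT4. It was at 111 and 55.3 CPM in αKO and 7.60 and 19.4 CPM in WT cultures (log2 fold change 2.62, edgeR adjusted p = 0.902). It passed without either WT library (adjusted p = 0.0283 without replicate 1 and 0.00472 without replicate 2, where 3.19% and 3.78% of all genes passed on the higher side). Pdk1, a kinase of the pyruvate dehydrogenase complex, was at 123 and 65.9 CPM in αKO and 46.3 and 15.4 CPM in WT. Its log2 fold change was 1.61 with all libraries and from 0.99 to 2.63 with 1 library left out. Pygl, a glycogen phosphorylase, was at 104 and 76.3 CPM in αKO and 55.8 and 48.8 CPM in WT. For the whole glucose group the summed level was 8812 and 6628 CPM in αKO and 3310 and 7108 CPM in WT cultures, so that WT replicate 2 was above αKO replicate 2.

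Of 12 genes of mitochondria and stress, 11 were higher (median 0.48). Ndufa4l2, a mitochondrial protein gene that damps complex I in hypoxia, was at 13.3 and 2.02 CPM in αKO and 0.712 and 0.269 CPM in WT cultures. Its log2 fold change of 3.95 was 2.03 without αKO replicate 1. Cox4i2, a cytochrome oxidase isoform known from low oxygen, had 40 and 13 counts in αKO and 3 and 2 counts in WT libraries. Like Mgarp it passed the filter through the αKO libraries alone. Bnip3, which marks mitochondria for removal, had a log2 fold change of 1.65 and passed only without WT replicate 1 (2.02, edgeR adjusted p = 0.0246).

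The remaining target groups were mixed. In the group of vessels, pH and secretion 7 were higher and 8 lower (median -0.28). Pdgfb, a growth factor gene, was at 71.6 and 72.7 CPM in αKO and 14.8 and 19.5 CPM in WT cultures, with αKO libraries that nearly coincided. Its log2 fold change was 2.07 (edgeR adjusted p = 0.902), and from 1.91 to 2.24 with 1 library left out. Cxcr4, a chemokine receptor, and Stc1, a secreted glycoprotein gene, had log2 fold changes of 0.89 (0.39 without αKO replicate 1) and 1.09 (0.53 without αKO replicate 2). Vegfa, the textbook HIF target for vessel growth, was at 94.6 and 78.9 CPM in αKO and 32.9 and 177 CPM in WT, the same placing of αKO between the WT libraries as for Adm. It passed only without WT replicate 2 (log2 fold change 1.36, adjusted p = 0.0302) and is named after its values were seen.

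In the matrix group 2 of 5 were higher, P4ha2 and Plod1, a collagen lysyl hydroxylase at 293 and 217 CPM in αKO and 137 and 183 CPM in WT cultures, while Lox, which crosslinks collagen, was at 1764 and 1431 CPM in αKO and 2814 and 1741 CPM in WT. In the group of gene control 8 of 16 were higher (median -0.06). Zfp395, a zinc finger gene, was at 22.9 and 29.9 CPM in αKO and 10.1 and 9.08 CPM in WT (edgeR adjusted p = 0.0447 without WT replicate 1). Selenbp1, a selenium-binding protein gene, was at 7.47 and 8.35 CPM in αKO and 2.77 and 2.35 CPM in WT, and Narf, a nuclear protein gene, at 39.0 and 29.1 CPM in αKO and 14.4 and 12.3 CPM in WT (adjusted p = 0.0465 without WT replicate 1). With all 4 libraries none of these passed in edgeR (adjusted p = 0.902 for Zfp395, Selenbp1 and Narf). Zfp395 and Selenbp1 were higher in αKO replicate 2 than in replicate 1.

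**Figure D4:**
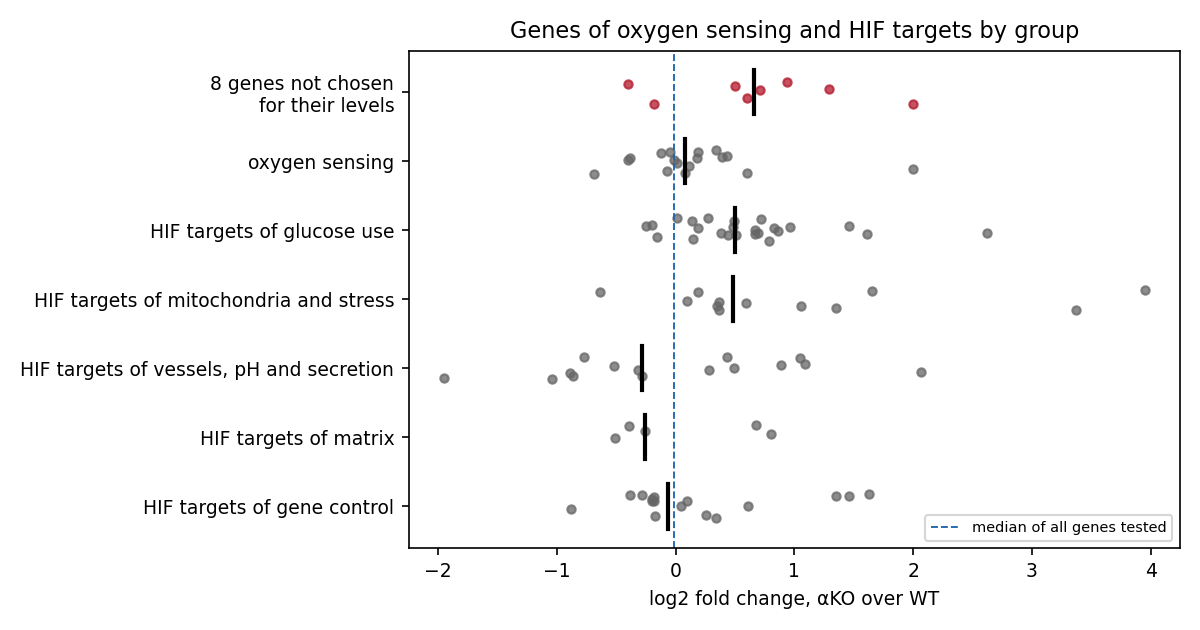
Fitted log2 fold change of αKO over WT for each tested gene (dots, spread vertically for legibility) of the 8 genes not chosen for their levels, of the oxygen-sensing genes and of 5 groups of HIF targets, with group medians as black bars and the median of all genes tested as a dashed line. The medians of the 8 genes, of glucose use and of mitochondria and stress were 0.66, 0.50 and 0.48, and those of the other 4 groups lay between -0.28 and 0.08.

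The genes most like Mgarp in pattern were found by the Euclidean distance between log2 CPM values of the 4 libraries, each gene centred on its own mean. The 5 nearest were Cxcl11 (distance 0.27), Trav13-4-dv7 (0.28), Ankrd37 (0.67), Cox4i2 (0.82) and F13a1 (1.03). For Ankrd37 they were Cox4i2 (0.28), Trav13-4-dv7 (0.58), F13a1 (0.59), Cxcl11 (0.60) and Mgarp (0.67). Mgarp and Ankrd37 were chosen for the same pattern, which sets their own closeness. The search used these same levels, so that each neighbour is higher in αKO was fixed in advance. The log2 values carry a prior count of 2, which draws very low levels together. With only 4 libraries and few counts these distances are coarse: Cxcl11 had 33 and 17 counts in αKO and 1 and 1 in WT, and Trav13-4-dv7 had 40 and 18 in αKO and 2 and 1 in WT. Like Cox4i2, Cxcl11 and Trav13-4-dv7 passed the filter on low counts through the αKO libraries alone. F13a1 was abundant, at 319 and 194 CPM in αKO and 53.6 and 47.3 CPM in WT cultures.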

How the data were processed

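RNA of 2 αKO and 2 WT cultures was compared. Submitters' processing notes list Trimmomatic 0.35, HTSeq 0.9.1, DESeq2 1.16.1 and R 3.4.0, with mm10 as the build. The aligner and the strand setting are not given in the sources used here. The deposited raw counts were the basis of all fits. The deposited TPM values, made by the authors per gene length, served only to compare levels between genes. The authors' normalized values and their table of fold changes and p-values were not used.

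Genes were kept by edgeR's filterByExpr with a minimum count of 10 (13571 of 37411), scaled by TMM and compared by genotype alone with edgeR 4.0.16 in R 4.3.3 (quasi-likelihood test, Benjamini-Hochberg over all genes kept). The standard error is the log2 fold change over the square root of the F statistic. Alternatives used DESeq2 1.42.0, limma 3.58.1 (voom), other scalings, no filter, a replicate block and an offset for transcript GC content. Positions come from GENCODE vM21 (GRCm38) and promoter windows from RefSeq. The genes and lists were chosen with earlier results of these data known. Of the wider lists, up to 3 genes per group with the smallest p are named, with relatives, partners and some neighbours of the 10 genes. The HIF targets with both αKO libraries below both WT libraries are named too. Intervals cover counting error only.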

Additional observations from a re-analysis of the deposited data

How the results depend on the processing

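The number of transcripts with an adjusted p under 0.05 was 0 by the quasi-likelihood test of edgeR. It was 52 with DESeq2, 28 with the likelihood ratio test, 1 with the replicate block and from 1 to 806 with 1 library left out (4 and 1 without αKO replicates 1 and 2, 806 and 678 without WT replicates 1 and 2). It stayed 0 with limma voom, either other scaling, no filter, the GC offset and the block with GC offset. For the 10 genes, including those chosen for their levels, the median log2 fold change was 0.82, from 0.73 to 0.94 under the other settings and from 0.58 to 1.12 with 1 library left out. That of the HIF targets was 0.36, from 0.19 to 0.54 with 1 library left out. That of the oxygen-sensing genes, 0.08, was -0.004 with library size alone and from -0.03 to 0.13 with 1 library left out. Scaling by library size alone moved the median of all genes to -0.09.

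Of 130 values of the 10 genes under the alternatives, 122 kept direction, call and, where no test was made, size. Adm, from -0.87 to 1.24 with 1 library left out, turned to 0.19 with limma voom, 0.18 with the replicate block, 0.19 with the block and GC offset and 1.24 without WT replicate 2, and Hif1a, from -0.89 to 0.16 with 1 library left out, to 0.16 without WT replicate 1. Mgarp and Ankrd37 moved by more than the spread between replicates without αKO replicate 1 (3.04 and 2.17), and Ndrg1 passed without WT replicate 1. The causes were not tested. With the replicate block, the counts at an unadjusted p under 0.05 on the higher side were 3 of the 8 genes not chosen for their levels, 15 of 72 HIF targets and 6.76% of all genes. With the GC offset alone they were 3, 16 and 6.23%, and without WT replicate 2 they were 3 of 8, 30 of 73 and 15.1%. The labels give both genotypes replicates 1 and 2 but no shared animal, litter or day, so the numbers do not establish pairs. The deviations of the same-numbered libraries from their genotype means correlated at 0.487 across genes. At these depths Mgarp and Ankrd37 rest on 7 to 11 counts in each WT library.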
